A study of Mus musculus with 4 samples.

Results

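Among activated CD4 T cells that transcribe Il13, a minority also held Il5 transcripts, and these Il5+ cells were compared with the Il5-negative Il13+ cells of the same mice. Members were cells of the IL-4 reporter sort with 500 or more genes, at most 10% mitochondrial UMIs (unique molecular identifiers, each standing for 1 captured transcript), no Cd79a UMI, 2 or more Il13 UMIs and a hashtag that assigned them to 1 mouse. This left 663 cells, 105 with an Il5 UMI and 558 without, of 4585 cells of the sort that passed the cell filter and 8501 in both sorts. The members and the sides were thus chosen by the Il5 and Il13 counts, so both genes are described and not tested.

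The cells came from the mediastinal lymph node of C57BL/6 4GET IL-4 reporter mice, which carry GFP with the Il4 gene, on day 7 after intranasal Alternaria alternata extract (10 µg) and NP-OVA (25 µg). TCRβ+ CD4+ CD44+ T cells with the IL-4 reporter were sorted and then stimulated for 30 min with PMA and ionomycin, which drive cytokine transcription without the antigen receptor, so levels are those of stimulated cells. A Tfh sort, gated on PD-1+ CXCR5+ cells among TCRβ+ CD4+ CD44+ T cells of C57BL/6 mice given the same immunization and stimulation, is used once. No unimmunized or unstimulated group was analysed here. Per the labels, each mouse had its own hashtag antibody and the cells were pooled in 1 lane, so both sides of each mouse share their library. The hashtag table lists 3 hashtags, each taken here as 1 mouse, where the labels name a range with 1 more.

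IL-5 and IL-13 are cytokines of type 2 immunity. IL-5 supports the growth and survival of eosinophils, and IL-13 acts on epithelium and smooth muscle of the airway. Their genes lie in 1 cluster with Il4, and in both T helper 2 cells and group 2 innate lymphoid cells (ILC2) they depend on the transcription factor GATA3. T follicular helper (Tfh) cells of the lymph node help B cells and are known for IL-4 and IL-21 more than for IL-5 and IL-13.

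The hashtags that tell the mice apart are short antibody barcodes, shown because every comparison rests on them. They are printed whole, with no part marked.
MHTO3, mouse 1: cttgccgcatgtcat
MHTO4, mouse 2: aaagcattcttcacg
MHTO5, mouse 3: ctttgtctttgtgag

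The promoters of the paired cytokine genes are shown for the GATA letters that the factor's name refers to. The RefSeq start regions (GRCm38.p6) were searched over the 250 bases before each start for AGATA on either strand, and the matches are in capitals. Il5, on the plus strand of chromosome 11, held 1 match that began 71 bases before the start. Il13, on the minus strand of the same chromosome, held 1 that began 81 bases before it. Of 32851 windows of the same length, 8737 (26.6%) held the letters, so a match describes the sequence only.
Il5, chr11:53720544-53720793, plus strand: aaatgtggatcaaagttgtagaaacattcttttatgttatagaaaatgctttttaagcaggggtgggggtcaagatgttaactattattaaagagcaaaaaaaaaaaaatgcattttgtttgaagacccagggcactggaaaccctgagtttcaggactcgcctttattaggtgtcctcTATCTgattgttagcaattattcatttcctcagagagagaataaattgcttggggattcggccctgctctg
Il13, chr11:53634703-53634952, minus strand: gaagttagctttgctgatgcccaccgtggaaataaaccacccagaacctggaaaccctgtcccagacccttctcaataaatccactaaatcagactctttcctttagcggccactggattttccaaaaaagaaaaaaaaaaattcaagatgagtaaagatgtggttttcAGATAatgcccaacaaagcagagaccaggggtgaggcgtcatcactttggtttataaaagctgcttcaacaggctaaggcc

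Il5+ cells were a minority of the Il13+ cells in each mouse. Mouse 1 gave 49 Il5+ and 195 Il5-negative cells, an Il5+ share of 20.1%. Mouse 2 gave 42 and 207, a share of 16.9%. Mouse 3 gave 14 and 156, a share of 8.24%, the lowest of the 3. Of the Il5+ cells, 19 held 1 Il5 UMI, 34 held 2 or 3 and 52 held 4 or more, up to 54 in 1 cell. Il5 transcripts outside the members were few: members held 815 of 831 Il5 UMIs (98.1%) in the mouse-assigned cells without Cd79a. Among 3005 such cells with 0 or 1 Il13 UMI, 14 held an Il5 UMI (0.466%), and among 250 cells with 2 or more Cd79a UMIs, taken as B cells that should lack Il5, 1 did (0.4%). The median depth was 4967.5 UMIs in those Cd79a cells and 13983 in the members, so the shares are not at equal depth. At the edge of the rule, 65 members held exactly 2 Il13 UMIs, and 334 cells just outside it held exactly 1, of which 1 held an Il5 UMI.

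The share of cells with Il5 went with how much Il13 they held. With 2 to 3 Il13 UMIs, 0.952% of 105 cells were Il5+ (95% exact binomial interval, which covers counting error only, 0.0241 to 5.19%). The share was 3.88% with 4 to 7 Il13 UMIs, 7.69% with 8 to 15, 11.9% with 16 to 31 and 24.8% with 32 to 63. With 64 or more it was 41.0% of 117 cells (32 to 50.5%). In each mouse the share was higher at 32 to 63 Il13 UMIs than at 16 to 31 and below. From 32 to 63 up to 64 or more it went from 32.1 to 41.7% in mouse 1, from 17.0 to 46.2% in mouse 2, and from 24.0 to 23.5% in mouse 3, where the last band held 17 cells.

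**Figure D1:**
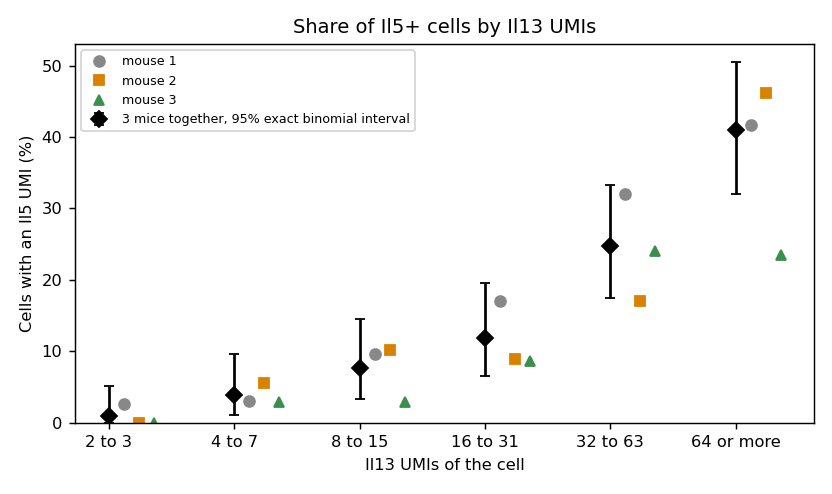
Share of Il13+ cells with an Il5 UMI (percent, vertical axis) in 6 bands of Il13 UMIs per cell (horizontal axis). Diamonds are the 3 mice together with 95% exact binomial intervals and small symbols are single mice; the share runs from 0.952% in the lowest band to 41.0% in the highest.

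With depth alone the mice differed. Cells with under 5000 UMIs outside Il5 and Il13 were Il5+ in 8.70%, those from 5000 to under 10000 in 11.2%, those from 10000 to under 20000 in 17.6%, those from 20000 to under 40000 in 16.8% and those with 40000 or more in 24.4%, pooled over mice. Over the same bands the share was 0, 6.45, 15.2, 21.6 and 41.7% in mouse 2. In mouse 1 it was 10.7, 17.7, 25.9, 19.2 and 17.6%, and in mouse 3 it was 15, 8.33, 4.88, 7.50 and 9.09%. It went up with depth at each step in mouse 2 alone. Pooled over mice, the share within cells of 32 or more Il13 UMIs did not follow depth. It was 41.7% under 10000 UMIs outside Il5 and Il13, 29.8% from 10000 to under 20000 and 32% from 20000. Within cells of 2 to 7 Il13 UMIs it was 1.77, 3.92 and 2.27% over the same depths. These pooled shares were not split by mouse, so they do not show that the share was free of depth in each mouse.

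The sides therefore differ in Il13 level, and in 1 mouse clearly in depth. The median Il13 UMIs per cell of Il5+ and Il5-negative cells were 55 and 16 in mouse 1, 69.5 and 18 in mouse 2, and 48.5 and 8 in mouse 3. In CPM, the count scaled to a common library total, Il13 stood at 3547 and 1793 in mouse 1, 2102 and 1624 in mouse 2, and 2652 and 787 in mouse 3. The median total UMIs of Il5+ and Il5-negative cells were 14370 and 12354 in mouse 1, 28220 and 12491 in mouse 2, and 15217 and 17702.5 in mouse 3. Il5+ cells of mouse 2 stood apart by their depth.

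**Figure D2:**
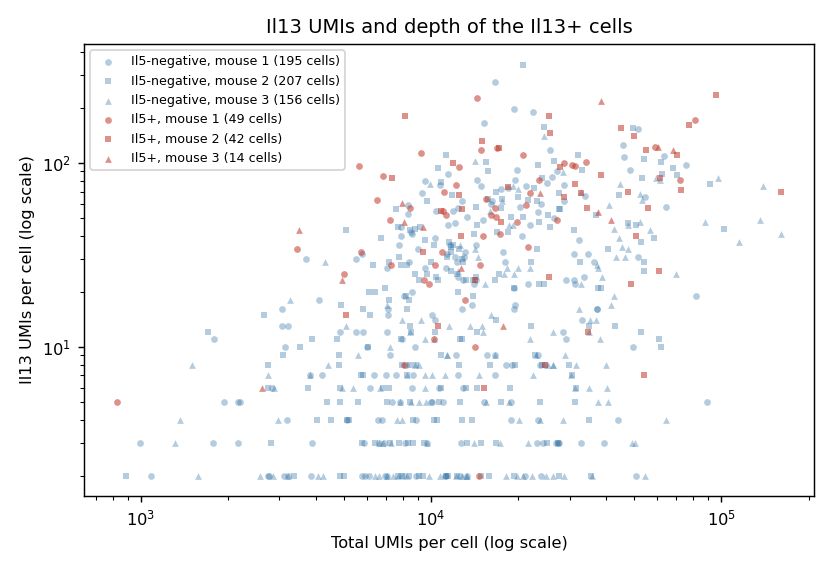
Il13 UMIs (vertical, log scale) against total UMIs (horizontal, log scale) of the 663 member cells, 1 symbol per cell, coloured by side and shaped by mouse. Il5+ cells (105) lie mostly at 16 or more Il13 UMIs but over the whole range of depth.

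UMIs were summed per mouse and side into 6 sums of 337437 to 3924626 UMIs and compared with edgeR's quasi-likelihood test, with the mouse as a block and 2 residual degrees of freedom. At a Benjamini-Hochberg adjusted p under 0.05, 1 of 8621 genes (0.0116%) passed, and 575 (6.67%) had an unadjusted p under 0.05. The Il5+ sum was the higher in 3 of 3 mice for 1054 genes (12.2%) and the lower in 3 of 3 for 1273 (14.8%). All values on 1 side lay above all of the other, higher in Il5+ sums for 419 genes (4.86%) and lower for 595 (6.9%). These percentages are the background for the counts that follow, in which "did not pass" refers to the adjusted p. The Il5+ sum of mouse 3 rests on 14 cells, and p-values describe the spread between 3 mice of 1 lane. Genes beyond the fixed list of cytokines, regulators and receptors were picked after their values were seen.

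Tbc1d4, a Rab GTPase-activating protein that in muscle and fat restrains glucose transporter traffic, was the gene that passed, and it was lower in Il5+ cells. It lies at chr14:101442360-101609191 on the minus strand (GENCODE M21, GRCm38). Its level was 32.9, 22 and 38.3 CPM in the Il5+ sums of mice 1 to 3 and 113, 108 and 116 CPM in the Il5-negative sums. The groups did not overlap, and the 3 Il5-negative values lay close together. The mean of 31.1 ± 8.29 CPM (SD, n = 3) against 112 ± 3.86 gave a log2 change of -1.96 ± 0.19 (SE; edgeR adjusted p = 0.00727). In cells of the same mice without an Il13 UMI it stood at 519 ± 57.6 CPM, above both sides.

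The difference was smaller among cells of high Il13. Among Il5-negative cells with 2 to 15 Il13 UMIs, Tbc1d4 stood at 227, 220 and 221 CPM in mice 1 to 3, on plain totals. Among Il5-negative cells with 16 or more it stood at 41.2, 46.4 and 35.3 CPM, and among Il5+ cells of that range at 33.8, 23.0 and 34.7 CPM. At 16 or more Il13 UMIs, Il5-negative cells were thus nearer to the Il5+ cells than to Il5-negative cells of low Il13. They were above the Il5+ cells in mice 1 and 2 and about level with them in mouse 3. Pooled over mice, the finer bands went both ways. At 16 to 63 Il13 UMIs, Tbc1d4 stood at 52.2 CPM in Il5+ and 45.9 CPM in Il5-negative cells. At 64 or more it stood at 17.1 and 32.2 CPM. Among the 13 Il5+ cells of 2 to 15 Il13 UMIs the levels were 0, 20.7 and 98.3 CPM, from 0, 3 and 2 UMIs, all below the Il5-negative cells of that range. With Il5+ cells paired to Il5-negative cells of the same mouse with like Il13 UMIs, where such a cell was found (49, 36 and 13 pairs), the log2 change was -0.66 ± 0.34 and did not pass (edgeR adjusted p = 0.99). Those pairs still differed in depth. Median UMIs of Il5+ and Il5-negative cells were 14370 and 17460, 29932.5 and 18100, and 12690 and 32728 in mice 1 to 3. Paired for total UMIs instead (48, 40 and 14 pairs) the log2 change was -1.29 ± 0.24 and did not pass either (edgeR adjusted p = 0.0576, where 4 of 6609 genes, 0.0605%, passed). The depth pairs still differed in Il13, at medians of 56 and 30, 68 and 39.5, and 48.5 and 8.5 UMIs. The call was also lost without mouse 1 (-2.04 ± 0.25, adjusted p = 0.0818) and without mouse 3 (-2.06 ± 0.21, adjusted p = 0.339). Over all alternatives Tbc1d4 was lower in Il5+ cells, with an adjusted p from 2.09e-18 to 0.99.

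**Figure D3:**
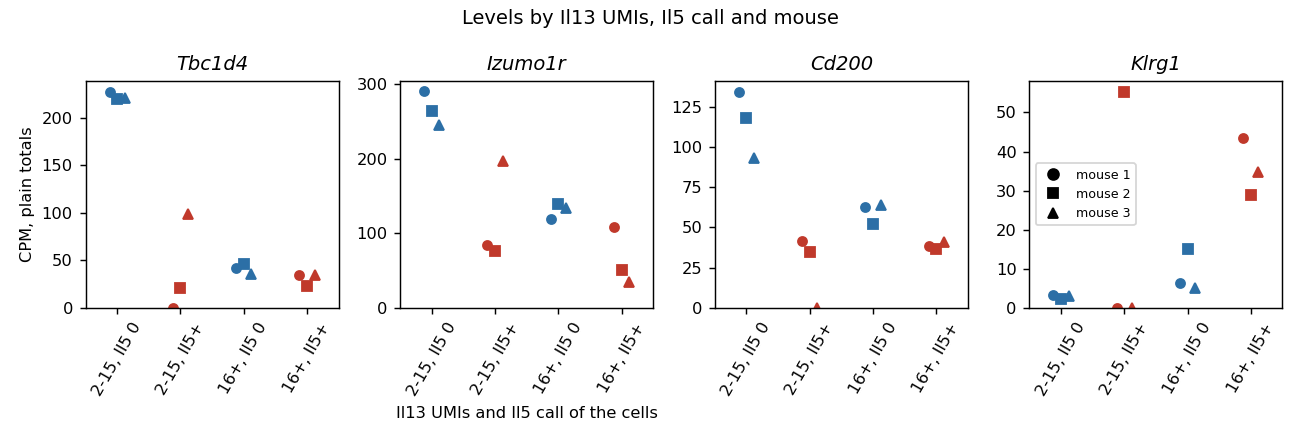
CPM on plain totals (vertical axes, from 0) of Tbc1d4, Izumo1r, Cd200 and Klrg1 in member cells split by Il13 UMIs (2 to 15, or 16 and more) and Il5 call, 1 symbol per mouse. Tbc1d4 separates low-Il13 Il5-negative cells (220 to 227 CPM) from the cells with 16 or more Il13 UMIs (23.0 to 46.4 CPM), while Klrg1 at 16 or more is higher in Il5+ cells (28.8 to 43.5 CPM) than in Il5-negative cells (4.98 to 15 CPM). Il5+ cells of 2 to 15 number 5, 6 and 2, and their values scatter.

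Klrg1, an inhibitory receptor for cadherins that marks effector lymphocytes and activated ILC2, differed in the other direction. It stood at 42.3, 30.2 and 32.4 CPM in the Il5+ sums and at 5.17, 10.6 and 4.05 CPM in the Il5-negative sums. Every Il5+ value was above every Il5-negative one, with a log2 change of 2.32 ± 0.34 that did not pass (edgeR adjusted p = 0.0684). Its Il5-negative level in mouse 3, 4.08 CPM on plain totals, lay just under the filter on low counts, and those of mice 1 and 2 above it. Klrg1 thus entered the test only with its Il5+ sums, a selection that favours a higher Il5+ side. Adjusted p ran from 9.99e-12 to 0.988 over the alternatives. Apart from left-out mice, it passed under 8 of 17 other settings of cells, depth and fit. Among them were pairs matched for depth (1.94 ± 0.34, adjusted p = 0.0297) and cells thinned to 4000 UMIs (3.30 ± 0.54, adjusted p = 0.0402, where 4 of 4582 genes, 0.0873%, passed). The sums of both fits were smaller, so the filter on low counts stood at a higher CPM there. These calls thus carry the same selection as the main fit and add no separate support. The thinned fit rests on the Il5+ sums of 2 mice, since mouse 3 kept 9 Il5+ cells. Its members and sides were called again on the thinned counts, which left 37 and 21 Il5+ cells in mice 1 and 2. Member cells that lost their Il5 UMIs in thinning count as Il5-negative in it. Matched for Il13 the change was 1.57 ± 0.39 (adjusted p = 0.892). Among cells of 16 or more Il13 UMIs, Klrg1 was higher in Il5+ than in Il5-negative cells in each mouse. It stood at 43.5, 28.8 and 34.7 CPM against 6.30, 15 and 4.98 CPM.

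The Klrg1 counts were spread over cells. In the Il5+ side 10 of 49, 12 of 42 and 5 of 14 cells held a UMI, or 20.4, 28.6 and 35.7%, against 5.64, 8.70 and 4.49% of Il5-negative cells. At a fixed 4000 UMIs per cell the shares were 10.6, 16.7 and 25.0% against 2.31, 3.57 and 2.08%. These shares keep the sides of the full counts (47, 42 and 12 Il5+ cells), unlike the thinned fit. In Cd79a cells, which should lack it, the unthinned shares were 0, 1.89 and 0%. Within Il5-negative cells Klrg1 also went with Il13, at 2.78 CPM for 2 to 15 Il13 UMIs, 6.14 for 16 to 63 and 14.6 for 64 or more, pooled over mice.

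Cytokines gave a mixed picture, and none passed. Csf2, which encodes GM-CSF, and Il3, its neighbour on chromosome 11, differed in opposite directions. Csf2 stood at 75.2, 84.9 and 106 CPM in the Il5+ sums and 57.8, 39.3 and 48.8 in the Il5-negative ones, without overlap (log2 change 0.86 ± 0.19, edgeR adjusted p = 0.269). These UMIs came from few cells: 10, 10 and 3 Il5+ cells held any, and 19 of the 36 UMIs of mouse 3 were in 1 cell. Il3, a growth factor for basophils and mast cells, stood at 57.6, 34.0 and 38.3 against 74.0, 77.3 and 60.2 CPM, also without overlap (log2 change -0.76 ± 0.21, adjusted p = 0.432). Matched for Il13 the changes were 0.70 ± 0.34 and -0.69 ± 0.21, and matched for depth 0.98 ± 0.37 and -0.04 ± 0.26, so at like depth the Il3 change was within its SE of 0.

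Il4, the reporter gene's cytokine, differed between sides by less than the spread of mice. It stood at 96.3, 39.6 and 47.1 CPM in Il5+ sums and 59.4, 61.6 and 47.3 in Il5-negative sums (log2 change 0.03 ± 0.25, edgeR adjusted p = 1). Areg, an epidermal growth factor family ligand, stood at 1843, 496 and 1052 against 1201, 1046 and 719 CPM, with the Il5+ sums of mice 1 and 3 high and that of mouse 2 low (0.04 ± 0.26, adjusted p = 1). Il10, an anti-inflammatory cytokine, stood at 584, 152 and 180 against 503, 555 and 233 CPM (-0.68 ± 0.31, adjusted p = 0.755). Il21, the B-cell helper cytokine, was lower in Il5+ sums in 3 of 3 mice, at 117, 140 and 73.7 against 249, 193 and 138 CPM (-0.79 ± 0.16, adjusted p = 0.202). Ifng, the T helper 1 cytokine, stood at 51.7, 23.3 and 11.8 against 58.1, 43.3 and 50.1 CPM (-0.74 ± 0.26, adjusted p = 0.634), from 10 Il5+ cells in all 3 mice. Il9 had 0 counts in all sums and was not tested.

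Il17a, the T helper 17 cytokine, stood at 163, 34.6 and 0 CPM in Il5+ sums and 18.3, 7.44 and 5.31 in Il5-negative sums. The high values came from 2 cells of mouse 1, 1 with 106 of the 139 UMIs, and 3 cells of mouse 2, 1 with 52 of the 55. Its log2 change of 2.46 ± 0.42 (edgeR adjusted p = 0.0975) is thus a value of a few cells.

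Regulators and receptors of type 2 cells did not pass either. Pparg, a lipid-sensing nuclear receptor of T helper 2 cells and ILC2 and a marker by which this comparison was chosen, stood at 146, 65.4 and 115 CPM in the Il5+ sums and 80.7, 72.2 and 49.3 in the Il5-negative sums. It was higher in Il5+ sums of mice 1 and 3 and lower in mouse 2 (log2 change 0.58 ± 0.23, edgeR adjusted p = 0.694). It was at 9.14 ± 1.28 CPM in cells without Il13, so both sides were far above those. Among Il5-negative cells it went with Il13, at 52.0, 67.3 and 90.9 CPM over 2 to 15, 16 to 63 and 64 or more Il13 UMIs, and matched for Il13 the change was 0.27 ± 0.17.

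Gata3, the master regulator of T helper 2 cells, stood at 534, 268 and 477 against 413, 396 and 326 CPM (0.11 ± 0.19, edgeR adjusted p = 0.972). Il1rl1, the IL-33 receptor chain, stood at 122, 34.6 and 94.3 against 63.9, 57.1 and 25.1 CPM (0.58 ± 0.37, adjusted p = 0.856). Both were the higher in Il5+ sums of mice 1 and 3 and the lower in mouse 2. Il17rb, a chain of the IL-25 receptor, was at or under 12.6 CPM in all 6 sums (0.18 ± 0.41, adjusted p = 0.986), and Bhlhe41, a regulator known from T helper 2 memory cells, had 1 count and was not tested. Rora, a nuclear receptor that ILC2 need, was higher in Il5+ sums in 3 of 3 mice, at 106, 90.6 and 112 against 68.8, 53.9 and 29.4 CPM. The Rora groups did not overlap, and the change of 0.99 ± 0.23 did not pass (edgeR adjusted p = 0.298); matched for Il13 it was 0.59 ± 0.31. Plin2, a lipid droplet coat protein, stood at 63.4, 21.4 and 53.0 against 21.0, 18.6 and 23.0 CPM, a change of 1.00 ± 0.28 and, matched for Il13, of 1.05 ± 0.30 (adjusted p = 0.458 unmatched).

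Mouse 2 stood apart in these genes, and leaving it out changed the count of calls more than leaving out any other mouse. Without it 53 of 8454 genes passed (0.627%), 42 higher and 11 lower, against 3 of 8816 without mouse 1 (0.034%) and 0 of 8731 without mouse 3 (503 at an unadjusted p under 0.05). Pparg rose by 0.99 ± 0.20 (edgeR adjusted p = 0.0221), Il1rl1 by 1.29 ± 0.25 (0.0156) and Areg by 0.58 ± 0.11 (0.0116) in that fit of 2 mice. Klrg1 passed with 3.00 ± 0.40 (edgeR adjusted p = 0.000778), with the selection through its Il5+ sums named above. In the 3-mouse fit the same genes did not pass, and adjusted p over all alternatives reached 1 for Pparg, Il1rl1 and Areg. The Il5+ cells of mouse 2 were the deeper ones, at a median of 28220 UMIs, and 78.6% of them held a Mki67 or Top2a UMI, genes of dividing cells, against 61.2 and 64.3% in mice 1 and 3; the part of depth and division in these values was not tested.

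**Figure D4:**
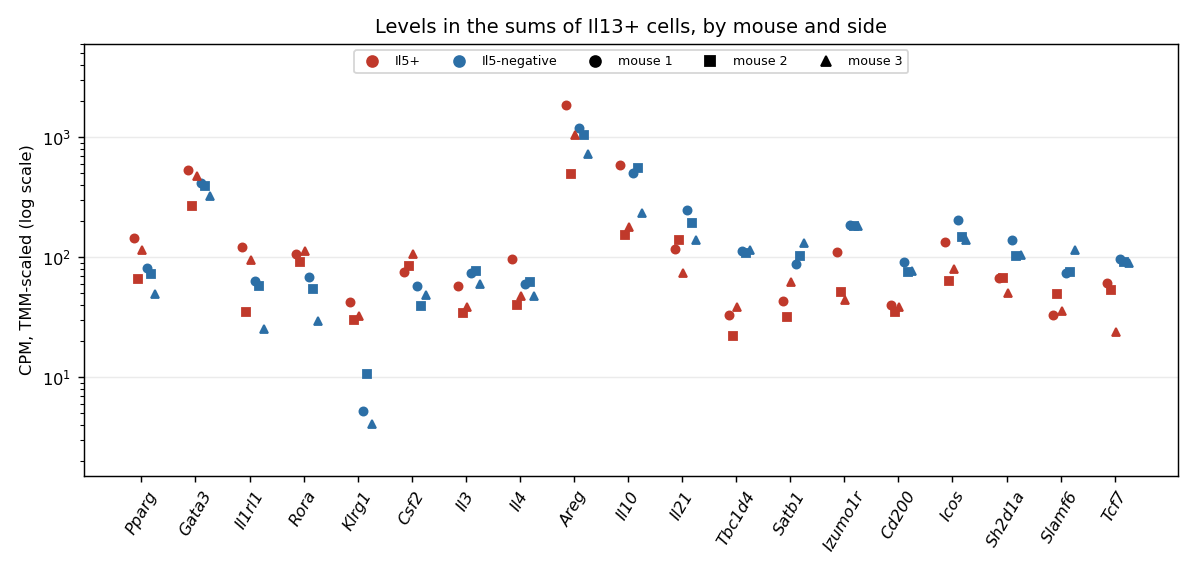
Level (TMM-scaled CPM, vertical log scale) of 19 genes in the 6 sums, red for Il5+ and blue for Il5-negative, with 1 symbol shape per mouse. The blue and red symbols of Klrg1, Tbc1d4, Izumo1r and Cd200 do not overlap, while the red square of mouse 2 lies below the other red symbols for Pparg, Gata3, Il1rl1 and Areg.

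Genes of Tfh cells were lower in the Il5+ sums, as a group. Of 22 on the list 20 were tested, 13 of these (65.0%) were lower in 3 of 3 mice against 14.8% of all genes, and 1, Pdcd1, was higher in 3 of 3. Their median log2 change was -0.79, beside 0.004 for all genes, and 0 of the 20 passed (575 of all genes at an unadjusted p under 0.05). Izumo1r, the folate receptor 4 of activated and follicular helper cells, stood at 110, 51.0 and 44.2 against 186, 184 and 181 CPM (-1.45 ± 0.22, edgeR adjusted p = 0.0684). Cd200, an immunoglobulin family ligand, stood at 39.9, 35.2 and 38.3 against 91.3, 75.7 and 76.2 CPM (-1.11 ± 0.17, adjusted p = 0.0684). Neither pair of groups overlapped.

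Costimulatory and signalling members of the list showed smaller differences. Icos, the inducible costimulator, stood at 134, 63.6 and 79.6 against 205, 148 and 138 CPM (-0.88 ± 0.16, edgeR adjusted p = 0.148). Sh2d1a, the adaptor of SLAM receptors, stood at 67.0, 66.7 and 50.1 against 138, 102 and 105 CPM (-0.86 ± 0.16, adjusted p = 0.152). Slamf6, such a receptor, stood at 32.9, 49.7 and 35.4 against 73.4, 75.2 and 114 CPM (-1.01 ± 0.21, adjusted p = 0.208). All 3 were without overlap. The defining Tfh genes were near the floor on both sides. Bcl6, their lineage repressor, had 0, 6.29 and 2.95 against 11.6, 10.6 and 6.58 CPM (-1.48 ± 0.58, edgeR adjusted p = 0.69). Cxcr5, the follicle homing receptor, had 0, 1.26 and 0 against 4.87, 4.25 and 4.56 CPM. No change is given for Cxcr5, because each of its Il5+ sums lay under the filter on low counts. Bcl6 too passed that filter only with its Il5-negative sums, and both genes count among the 13 lower in 3 of 3 mice. In cells without Il13 these stood at 44.3 ± 6.09 and 42.5 ± 4.04 CPM. Pdcd1, the gene of PD-1, stood at 139, 116 and 127 against 112, 99.9 and 94.4 CPM (0.30 ± 0.14, adjusted p = 0.756).

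The Tfh differences shrank between cells paired for Il13 or depth, and little in thinned cells. The list's median was -0.34 over 16 genes with pairs of like depth and -0.30 over 16 with pairs of like Il13. Bcl6 and Cxcr5 were not tested in these fits or in thinned cells. The medians thus cover fewer genes than the -0.79 of the main fit, and part of the shift may come from the genes that left. In cells thinned to 4000 UMIs, with the Il5+ sums of 2 mice, it was -0.70 over 14 genes, and Izumo1r passed with -2.74 ± 0.40 (edgeR adjusted p = 0.0282; up to 0.99 over all alternatives). Of the whole table, 0 genes passed in the Il13-matched fit (250 of 6551 at an unadjusted p under 0.05). Cd200 went to -0.19 ± 0.22 with Il13 matched and 0.01 ± 0.27 with both matched, and Tcf7 from -0.92 ± 0.21 to 0.12 ± 0.25 with Il13 matched. Izumo1r, at -0.98 ± 0.35, and Icos, at -0.60 ± 0.20, kept more of their difference. Matching leaves fewer cells, so a gene that misses the threshold there is not shown to be alike on both sides.

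**Figure D5:**
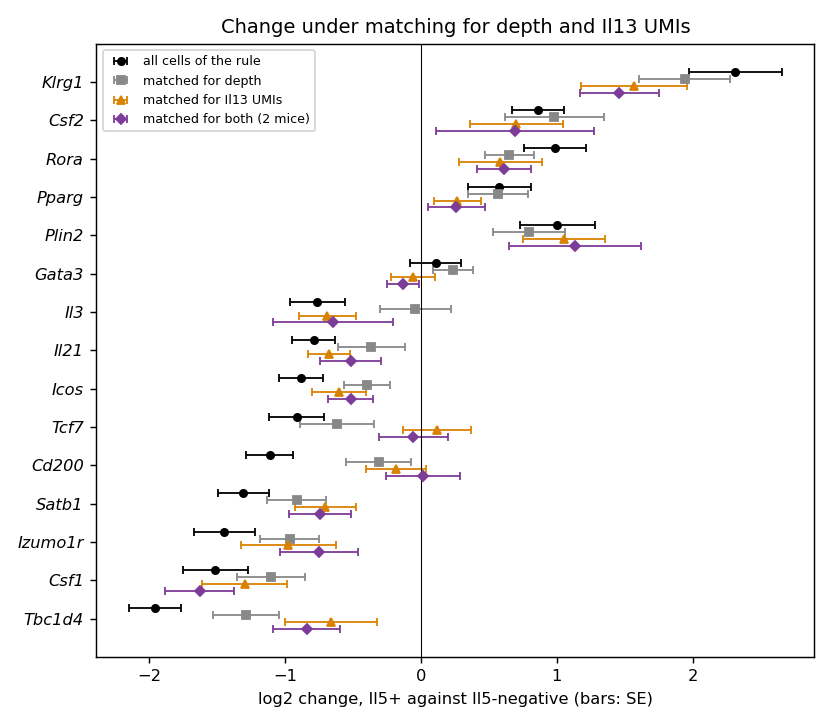
Log2 change of Il5+ against Il5-negative sums (horizontal axis, bars are SE) for 15 genes with all member cells, with pairs matched for depth, for Il13 UMIs, and for both (2 mice, since mouse 3 kept 9 pairs). Tbc1d4, Cd200 and Tcf7 move toward 0 under the Il13 matching, while Klrg1 stays above 1.4 and Csf1 below -1 in all 4 fits.

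Genes of naive and central memory cells went the same way. Of 8 tested members 6 (75.0%) were lower in 3 of 3 mice, with a median of -0.64, and 0 passed; Tcf7 and Lef1 are also on the Tfh list. Satb1, a chromatin organizer of T-cell development, stood at 43.5, 31.5 and 61.9 against 87.7, 101 and 133 CPM (-1.31 ± 0.19, edgeR adjusted p = 0.0684), and matched for Il13 at -0.70 ± 0.23. Tcf7, the transcription factor TCF-1 of naive, memory and Tfh cells, stood at 61.1, 52.9 and 23.6 against 96.2, 90.8 and 89.3 CPM (adjusted p = 0.282). Outside the lists, Csf1, the macrophage growth factor, stood at 58.7, 18.9 and 35.4 against 121, 89.0 and 80.5 CPM (-1.51 ± 0.24, adjusted p = 0.0684) and changed little under Il13 matching (-1.30 ± 0.31).

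T-cell receptor transcripts were found throughout the Il5+ cells. All 105 held a UMI of Cd3d, Cd3e or Cd3g and all 105 one of Trac, Trbc1 or Trbc2, as did 557 and 558 of the 558 Il5-negative cells. The 27 Il5+ cells with a Klrg1 UMI all held both kinds. Summed over 16 receptor component genes the level was 5966 to 8287 CPM in Il5+ and 7304 to 8675 CPM in Il5-negative sums. Of these genes 7 (43.8%) were lower in Il5+ sums of 3 of 3 mice, Trac and Cd3e among them, against 14.8% of all genes, with a median of -0.26. In the Cd79a cells, which should lack these genes, 133 of 250 (53.2%) held a CD3 UMI and 175 (70.0%) a receptor chain UMI at their lower median depth, so a UMI by itself does not show expression in that cell.

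Genes of ILC2, which make both cytokines without an antigen receptor, were measured beside these. Their 12 genes summed to 998, 558 and 824 CPM in Il5+ sums and 661, 567 and 341 CPM in Il5-negative sums, higher in mice 1 and 3, and 2 of 7 tested members (28.6%), Klrg1 and Rora, were higher in 3 of 3 mice against 12.2% of all genes. Another, Thy1, was lower in 3 of 3 (14.3% against 14.8% of all genes), and the list median was 0.58. Kit was at 0 in the Il5+ side. The sort gated on TCRβ+ CD4+ cells. Whether any ILC2 came through this gate, and their part in the Klrg1 difference, was not tested.

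Gamma chain transcripts were few. Tcrg-C2, a gamma constant gene, had 21, 27 and 8 UMIs in 5, 8 and 2 Il5+ cells. In the Il5-negative side it had 2, 12 and 0 UMIs in 1, 4 and 0 cells. No change is given, because each of its Il5-negative sums lay under the filter on low counts and it passed only through the Il5+ sums. Gamma constant genes resemble each other, so their reads may be split among copies. All 15 of these Il5+ cells held a Trac, Trbc1 or Trbc2 UMI, and 1 held a UMI of Trdc, the delta chain that gamma delta T cells need. Trdc had 0, 15 and 0 UMIs in Il5+ sums and 0, 0 and 9 in Il5-negative sums.

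Other lineages were low and not steadily higher on 1 side. B-cell genes summed to 130 to 366 CPM in Il5+ and 259 to 399 in Il5-negative sums, with Ebf1 at 0 in the Il5+ side, and macrophage genes to 171 to 224 and 181 to 210 CPM. Mast cell and basophil genes summed to 88.0 to 247 and 77.7 to 289 CPM, with Fcer1a, Ms4a2, Gata2, Mcpt4 and Prss34 at 0 in all members. The 25 proliferation genes summed to 7024 to 12808 CPM in Il5+ and 9261 to 11205 in Il5-negative sums, with a median log2 change of 0.08.

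In the Tfh sort, which the rule did not use, the same limits without the hashtag step gave 72 Il13+ cells, 9 of them Il5+. The Il5+ and Il5-negative cells had medians of 37 and 7 Il13 UMIs and of 6398 and 3894 total UMIs. Tbc1d4 stood at 48.7 CPM (95% exact Poisson interval 10.0 to 142) in the Il5+ cells, from 3 UMIs, and at 217 CPM (174 to 269) in the Il5-negative cells. Klrg1 had 0 UMIs in the Il5+ cells (0 to 59.9 CPM) and stood at 28.1 CPM (14 to 50.3), from 11 UMIs, in the Il5-negative cells. These are single sums of 1 lane, of other chemistry and sequencer, and no test was made.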

How the data were processed

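Single-cell 3′ gene expression and hashtag tags were measured in 1 lane of the 10x Genomics system for each of 2 sorts. Raw UMI counts of each gene in each barcode make up the deposited matrices, and raw counts of each tag the deposited hashtag table, where molecules and reads are not told apart. Cell Ranger 2.2.0 and builds mm10 and GRCm38 are given in the submitters' processing notes, while the file header of the reporter matrix gives version 3.0.2. The annotation release is not given in the sources used here. Members, gene lists and the test were chosen with earlier results of these data known.

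Of 7646 reporter barcodes, 4585 passed the cell filter and 4225 of these had no Cd79a UMI. A cell went to a mouse if its top hashtag had 10 or more counts and at least 3 times the second. This left out 69 of 732 Il13+ cells (8 of 113 Il5+), all with 2 tags at 10 or more counts. No doublet caller was run, so doublets within a mouse remain. The sorts' RNA matrices shared 1 barcode sequence. The sums held 10 or more cells each. edgeR 4.0.16 in R 4.3.3 kept genes by filterByExpr (count limit 10), scaled by TMM and had the mouse as a block, since both sides come from the same animal. Il5 and Il13 were left out before adjustment. Levels of single genes in the sums by mouse and side are TMM-scaled CPM unless plain totals are named. Plain totals were used for Il13, levels by Il13 band, cells without Il13, list sums and the Tfh sort. SE is the log2 change divided by the root of the F statistic. Pairs were made 1 to 1 within a mouse by optimal assignment, within 0.05 log10 units of depth or 0.25 log2 units of Il13 (0.1 and 0.5 for both). The fit was tested on simulated data. Alternatives included DESeq2 1.42.0, other scaling, filters, cell limits and left-out mice.

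The genes named were a fixed list (Pparg, Il4, Il9, Il3, Csf2, Areg, Il10, Il21, Ifng, Gata3, Bhlhe41, Il1rl1, Il17rb, Bcl6, Cxcr5, Pdcd1), passing genes by size, and passing list members, never Il5 or Il13 as results. As 1 gene passed, others among the smallest p-values or on the lists were added after their values were seen.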

Additional observations from a re-analysis of the deposited data

How the results depend on the processing

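The count of 1 gene was unchanged with RLE size factors, a hashtag rule of 20 counts and a ratio of 5, and without the mouse as a replicate block (1). It was also 1 with 5 or more Il13 UMIs, where the gene was Il17a and not Tbc1d4. The count was 9 with DESeq2, 6 with plain totals, 120 with no low-count filter, 26 with cells without Il13 as a further set of sums, 17 with Il5+ at 2 or more UMIs and 28 with 1000 genes and 5% mitochondrial UMIs, which left mouse 3 without an Il5+ sum. It was 4 when matched for depth, 0 when matched for Il13 (250 unadjusted) or for both (264), 4 in thinned cells, where mouse 3 kept no Il5+ sum, and 2 without cells holding other-lineage or Foxp3 UMIs. Chosen after seeing the data, it was 8 without cells above 40000 UMIs and 21 in resting cells without the block. Among resting cells only mouse 1 kept an Il5+ sum, of 19 cells, which is why the block was dropped. The 21 thus set the Il5+ sum of 1 mouse against the Il5-negative sums of mice 1 to 3. With 1 Il5+ sum the spread between mice on that side is unknown, so no conclusion is drawn from the 21. Leaving out 1 mouse gave 0 to 53. The cause of these moves was not tested.

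Genes whose sign turned did not pass in the main comparison. Il4 went to -0.0078 (Il5 at 2 or more), -0.053 (stricter hashtags) and -0.28 (resting, Il5+ sum of mouse 1 only), and from -0.41 to 0.46 over the left-out mice. Areg went to -0.094 (Il13 matched), -0.37 (both), -0.051 (Il13 at 5 or more), -0.042 (stricter hashtags) and -0.24 (stricter cells), and from -0.27 (without mouse 1; -0.22 without mouse 3) to 0.58 over the left-out mice. Gata3 went to -0.060 (Il13 matched), -0.13 (both), -0.12 (thinned) and -0.14 (stricter cells), and from -0.092 (without mouse 3; -0.028 without mouse 1) to 0.45 over the left-out mice. Il1rl1 went to -0.20 (both) and -0.10 (stricter cells). Il10 went to 0.064 (depth matched), Cd200 to 0.014 and Mt1 to -0.086 (both), and Cd83 to 0.38 and Tcf7 to 0.12 (Il13 matched). Pdcd1 went to -0.052 (resting, Il5+ sum of mouse 1 only) and Prdm1 to 0.014 (thinned). Depth limits genes of few UMIs such as Bcl6 and Cxcr5, which left the tested set in several fits.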
